A study of Mus musculus with 2 samples.

Results

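The subject is a group of genes that make, store, activate and receive transforming growth factor β (TGFβ) in the bleomycin-injured mouse lung. It comprises the 3 ligand genes Tgfb1, Tgfb2 and Tgfb3, the latency gene Ltbp1, the integrin subunit genes Itgav and Itgb6, and the receptor genes Tgfbr1, Tgfbr2 and Tgfbr3. The 9 genes were chosen by name for their role in the pathway from the 27998 genes of the deposited tables, with earlier results of these data known, and each had exactly 1 entry there. The study concerns BCL-2 inhibition, its bearing on endoplasmic reticulum stress through IRE1α, and pulmonary scarring. All mice were C57Bl6 and received bleomycin, a drug that injures the alveolar lining and leaves scar tissue, on day 1. The groups were bleomycin with vehicle and bleomycin with navitoclax (ABT-263), an inhibitor of BCL-2 family proteins, given from day 15 to day 20. Groups follow the treatment label of each sample, since the protocol text names navitoclax for both. Lungs were collected on day 21, and sorted epithelial and stromal cells were mixed in equal parts for droplet sequencing of the 3′ ends of transcripts. Each group had 1 library, with the number, age and sex of the mice not given in the sources used here. No uninjured lung was analysed here, so every level below is that of an injured lung.

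TGFβ is made as an inactive complex. The mature cytokine stays caged by its own propeptide, which is tethered to the extracellular matrix through a latent TGFβ binding protein. In the lung epithelium, the integrin αvβ6 binds an Arg-Gly-Asp motif in the propeptide and frees the cytokine by pulling on it, a step on which experimental lung fibrosis is known to depend. Freed TGFβ binds a pair of receptor kinases that phosphorylate SMAD proteins, and in fibroblasts this drives matrix genes.

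Values are unique molecular identifiers (UMIs, counted transcript molecules) summed over the cells of a type in a library and given per 1000000 UMIs of that type (CPM). Brackets hold 95% intervals, which cover counting error and leave out any variation from mouse to mouse or from one preparation to the next. With 1 library a group there is no test between treatments, and cells were not used as replicates. Counts from transcript ends are not scaled by length, so levels were compared between cell types within a gene and not between genes. A ratio is navitoclax CPM over vehicle CPM, and a gene was called higher or lower where that ratio reached 1.5 in either direction, its interval left out 1 and both libraries together held at least 20 UMIs.

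After filtering and doublet removal the vehicle library held 7174 cells and the navitoclax library 6228, from totals of 97958947 and 98517048 UMIs. The libraries shared 13 barcodes among these cells. Cell types were set by scores on marker lists that contain none of the 9 genes, and each name stands for cells with that marker profile. The 10 described were type II, transitional, type I and ciliated epithelial cells, alveolar, adventitial and peribronchial fibroblasts, fibroblasts with a fibrotic score, fibroblasts without a subclass, and smooth muscle cells. Median depth per cell ran from 5532.5 UMIs in vehicle peribronchial fibroblasts to 19793.5 in navitoclax type II cells. All of their own markers reached 20 CPM in both libraries in type II, type I, ciliated, alveolar, adventitial, peribronchial and smooth muscle cells. In transitional cells Cldn4 and Plaur stayed under that level. In fibrotic-score fibroblasts Lrrc15 and Adam12 did so in both libraries and Grem1 in the navitoclax library, and Tnc and Sfrp1 made up 64.1% (vehicle) and 85% (navitoclax) of the summed marker level. That class is therefore a range of a score rather than a type, and 61.8% and 62.3% of its cells lay within 0.05 of its boundary. The leukocyte marker Ptprc was at 0 to 0.0626 CPM in the vehicle types and 0 to 2.56 in the navitoclax types, so leukocytes, which the sort left aside, are not described. Free RNA, read from the surfactant gene Sftpc in fibroblasts, came to 1.47% and 1.62% of the UMIs of a fibroblast.

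The ligands differ in the site that αvβ6 binds, and the coding bases of that site are shown for this reason. They come from GENCODE M21 transcripts on GRCm38, read 5′ to 3′ on the coding strand, and in each the capitals start in coding exon 5 of 7. Capitals mark the codons for Arg-Gly-Asp, and in Tgfb2 the codons at the aligned position, which read Ser-Gly-Asp.
Tgfb1: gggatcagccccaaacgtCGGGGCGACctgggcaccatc
Tgfb2: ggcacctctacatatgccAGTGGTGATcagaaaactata
Tgfb3: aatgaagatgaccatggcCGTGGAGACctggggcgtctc
The capitals start at codon 244 of 390 in Tgfb1, codon 261 of 414 in Tgfb2 and codon 261 of 412 in Tgfb3. The Tgfb1 bases fall between positions 25696995 and 25697162 of chromosome 7, on the plus strand and across an exon junction. Those of Tgfb2 are chr1:186630741-186630779 and those of Tgfb3 are chr12:86062153-86062191, both on the minus strand. Tgfb2 had 0 in-frame Arg-Gly-Asp matches anywhere in its coding sequence. Such a match occurs in 6.95% of principal mouse coding sequences (1564 of 22500), so it describes these ligands and does not by itself mark an integrin site.

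Each ligand had its own distribution over the cell types. Tgfb1 (chromosome 7, 25687002 to 25705077) encodes the isoform most often tied to fibrosis, and it was spread almost evenly. In type II cells, the surfactant-producing cells of the alveolus, Tgfb1 was at 16.8 CPM (15.7 to 18.1) in the vehicle library and 16.1 (14.9 to 17.3) in the navitoclax library. In pooled fibroblasts it was at 25.7 and 24.5 CPM, 1.53-fold (1.38 to 1.69) and 1.52-fold (1.37 to 1.70) the type II level. Transitional cells, the keratin-rich state between type II and type I cells after injury, had 18.6 and 19.6 CPM, and type I cells, the thin gas-exchange cells, 24.4 and 21.3. Neighbours in this order had overlapping intervals from the second to the ninth of the 10 types in the vehicle library and from the first to the ninth in the navitoclax library. Ciliated cells stood below all others at 0.725 and 2.37 CPM, on 3 and 14 UMIs. The fibrotic-score fibroblasts of the vehicle library stood above all others at 144 CPM (122 to 169), against 34.2 (24.4 to 46.6) in the navitoclax library, but 103 of their 148 UMIs came from 1 cell. Without the cell richest in Tgfb1 in each library the values were 47.5 and 32.1 CPM.

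Tgfb2 (chromosome 1, 186622792 to 186705989) encodes the isoform without the Arg-Gly-Asp motif and was concentrated in a few types. Smooth muscle cells had 110 CPM (83.6 to 141) in the vehicle library and 161 (130 to 197) in the navitoclax library. Type I cells had 103 CPM (89.3 to 118) and 57.9 (46.4 to 71.4), and type II cells only 1.26 (0.956 to 1.62) and 0.864 (0.617 to 1.18). Within the alveolar epithelium Tgfb2 thus belonged to type I cells, with 82.1-fold (61.1 to 112) the type II level in the vehicle library and 67-fold (45.5 to 100) in the navitoclax library. Peribronchial fibroblasts, which lie around airways, had 82.3 and 88.4 CPM, adventitial fibroblasts of vessel and airway cuffs 55.3 and 53.8, and alveolar fibroblasts of the gas-exchange walls 35.3 and 39.0. Smooth muscle and type I cells did not differ beyond counting error in the vehicle library, while in the navitoclax library smooth muscle cells stood above the other 9 described types without overlap. After each cell was thinned to 2000 UMIs, 17% and 7.22% of type I cells held a Tgfb2 UMI, against 0.276% and 0.09% of type II cells, where the level is lowest. Unthinned medians were 10152 and 13783 UMIs per type I cell and 17938 and 19793.5 per type II cell.

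Tgfb3 (chromosome 12, 86056745 to 86079041), the third ligand, was a stromal transcript with a gap inside the fibroblasts. Peribronchial fibroblasts had 270 CPM (237 to 306) in the vehicle library and 207 (183 to 235) in the navitoclax library. Smooth muscle cells followed with 181 and 163 CPM, adventitial fibroblasts with 154 and 158, and alveolar fibroblasts were far lower at 36.2 (33.3 to 39.2) and 35.95 (32.8 to 39.3). The peribronchial level was 7.47-fold (6.41 to 8.70) and 5.77-fold (4.93 to 6.73) the alveolar one, and the adventitial level 4.27-fold and 4.40-fold. Peribronchial fibroblasts and smooth muscle cells did not overlap in the vehicle library and overlapped in the navitoclax library. Epithelial types lay below every fibroblast type, from 2.66 CPM in ciliated to 24.9 in transitional cells in the vehicle library and from 0.676 to 19.3 in the navitoclax library. At 2000 UMIs a cell, 37.5% and 33.7% of peribronchial fibroblasts and 2.56% and 2.61% of type II cells held a Tgfb3 UMI.

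**Figure D1:**
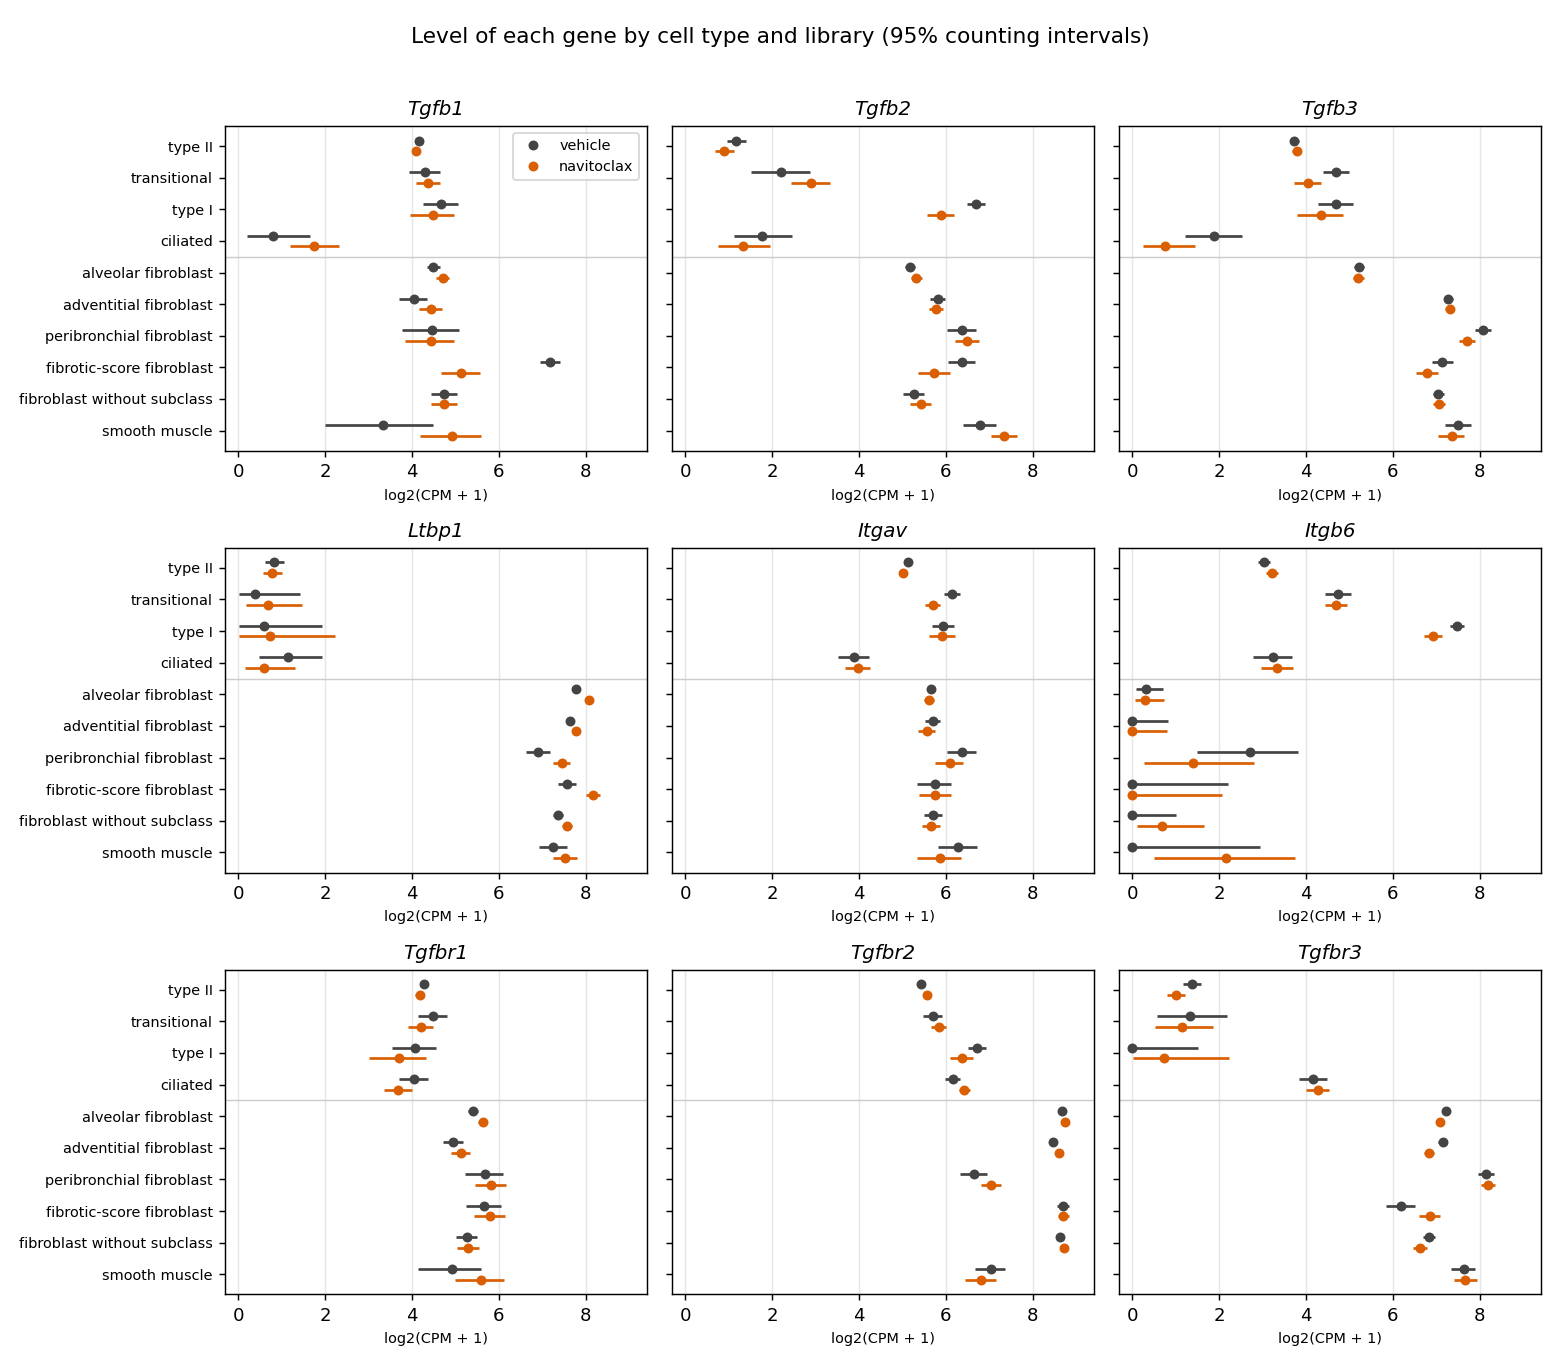
Level of each of the 9 genes (CPM, log axis) by cell type, as 1 point per library with its 95% Poisson interval for counting error. Itgb6 reached 178 and 120 CPM in type I cells, while Ltbp1 and Tgfbr3 stood at or above 72.1 CPM in every fibroblast type and smooth muscle.

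Ltbp1 and Itgb6 lay in different compartments, and Itgav in both. Ltbp1 (chromosome 17, 75005568 to 75392512) encodes latent TGFβ binding protein 1, which tethers the inactive complex to the matrix, and it was a stromal transcript. Alveolar fibroblasts had 219 CPM (212 to 227) in the vehicle library and 270 (261 to 279) in the navitoclax library, and the 6 stromal types ranged from 119 to 219 and from 174 to 286. Epithelial types had 0.300 to 1.21 and 0.507 to 0.713 CPM, while the free RNA share read in fibroblasts would give 0.913 and 1.09. That share was not measured in epithelial cells. Type II cells were deeper than pooled fibroblasts, with medians of 17938 and 19793.5 against 7457 and 8094.5 UMIs. Whether epithelial Ltbp1 exceeds free RNA was therefore not tested. Pooled fibroblasts had 265-fold (191 to 379) and 342-fold (243 to 497) the type II level. At 2000 UMIs a cell, 33.7% and 38.4% of alveolar fibroblasts held an Ltbp1 UMI, against 0.0787% and 0.225% of type II cells.

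Itgav (chromosome 2, 83724397 to 83806916) encodes the αv subunit, which pairs with several β subunits, and it was detected in all 10 types. Peribronchial fibroblasts had the top level in each library, 81.2 CPM (63.6 to 102) and 66.9 (53.1 to 83.2). The top 8 types formed a chain of overlapping neighbours in both libraries, down to alveolar fibroblasts at 49.6 CPM (46.2 to 53.2) in the vehicle library and adventitial fibroblasts at 46.1 (40.3 to 52.5) in the navitoclax library. Type II cells followed without overlap at 33.7 and 31.4 CPM, and ciliated cells at 13.8 and 14.7. Type I and transitional cells lay among the fibroblasts in this order, at 60.4 and 59.2 CPM and at 69.9 and 50.8 CPM.

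Itgb6 (chromosome 2, 60598292 to 60722643) encodes the β6 subunit, whose only known partner is αv, and nearly all of its UMIs lay in epithelial cells. Type I cells had 178 CPM (159 to 197) in the vehicle library and 120 (104 to 139) in the navitoclax library. Transitional cells had 25.8 (20.6 to 31.9) and 24.8 (20.6 to 29.6), and type II cells 7.13 (6.38 to 7.93) and 8.28 (7.47 to 9.15). The order type I, transitional, ciliated had no overlap in either library, while ciliated cells, at 8.46 and 9.13 CPM, overlapped with type II cells. The type I level was 24.9-fold (21.4 to 29.0) and 14.5-fold (12.1 to 17.4) that of type II cells and 6.88-fold (5.42 to 8.82) and 4.85-fold (3.84 to 6.15) that of transitional cells. In pooled fibroblasts 9 and 7 UMIs were counted, 0.342 and 0.291 CPM, and none in adventitial or fibrotic-score fibroblasts of either library. Peribronchial fibroblasts held 5 of the 9 vehicle UMIs, at 5.56 CPM (1.81 to 13), which overlapped with type II cells, and 2 of the 7 navitoclax UMIs, at 1.65 CPM (0.2 to 5.97). In adventitial fibroblasts a count of 0 allows up to 0.624 and 0.604 CPM, and in fibrotic-score fibroblasts up to 2.92 and 2.56 CPM. At 2000 UMIs a cell, 26.5% and 19.6% of type I cells held an Itgb6 UMI, as did 5.49% and 4.2% of transitional and 1.18% and 1.12% of type II cells.

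The αvβ6 integrin needs both subunits in the same cell. A UMI of Itgav together with a UMI of Itgb6 was found in 29.9% of type I cells (23.1 to 37.5, 50 of 167) in the vehicle library and in 31% (22.1 to 41.0, 31 of 100) in the navitoclax library. Transitional cells followed with 19.7% and 19.6%, then type II cells with 5.33% (4.5 to 6.27) and 7.72% (6.65 to 8.91) and ciliated cells with 2.36% and 2.77%. Alveolar fibroblasts had 0.0932% and 0.121%, and peribronchial fibroblasts 2.03% (0.42 to 5.81) and 0.559% (0.0141 to 3.07), which overlapped with ciliated cells in both libraries. Type I cells had the highest share although their median depth was below that of type II and transitional cells, and their intervals overlapped with those of transitional cells in both libraries. After thinning to 2000 UMIs few pairs were left, in 5 of 147 vehicle and 5 of 97 navitoclax type I cells (3.4% and 5.15%), in 1 and 4 type II cells and in 0 of 182 and 0 of 238 transitional cells, which at that depth allows up to 1.65% and 1.26% and sets no limit on cells that carry both transcripts.

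**Figure D2:**
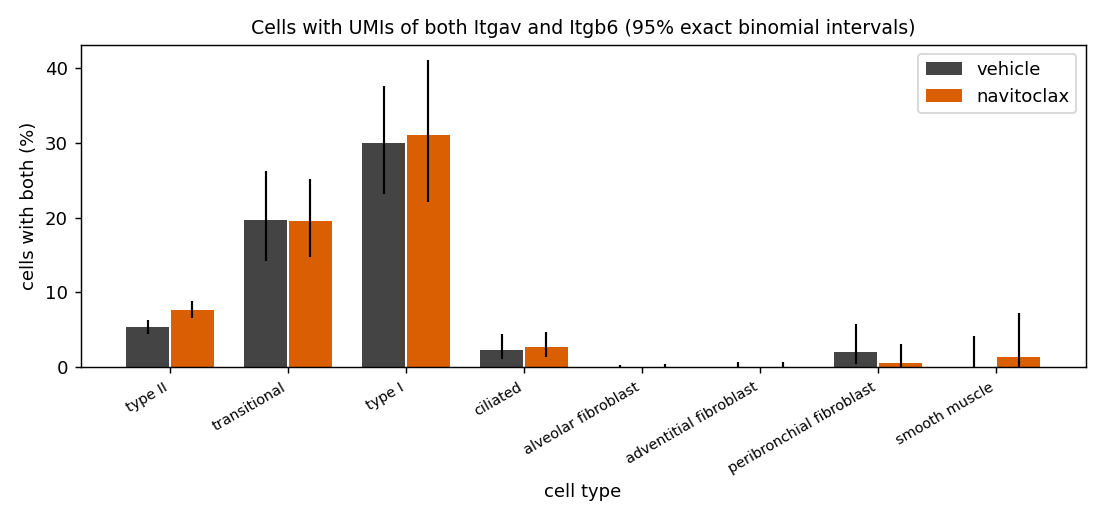
Share of cells (percent) with UMIs of both Itgav and Itgb6 by cell type and library, with exact 95% Clopper-Pearson intervals, in cells at their full depth. Type I cells reach 29.9% and 31%, and type II cells 5.33% and 7.72%.

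The receptors were stromal to different degrees. Tgfbr2 (chromosome 9, 116084293 to 116175360) encodes the kinase that binds the ligand first. Alveolar fibroblasts had 405 CPM (395 to 415) in the vehicle library and 429 (418 to 440) in the navitoclax library, and fibrotic-score fibroblasts, adventitial fibroblasts and those without a subclass lay between 354 and 423. Peribronchial fibroblasts stood apart from these 4 with 99.0 CPM (79.5 to 122) and 131 (111 to 153), so that the alveolar level was 4.09-fold (3.32 to 5.10) and 3.29-fold (2.81 to 3.87) theirs. Smooth muscle cells, at 130 and 111 CPM, overlapped with them. Among epithelial types the values ran from 42.0 CPM in type II to 105 in type I cells in the vehicle library and from 46.2 in type II to 84.7 in ciliated cells in the navitoclax library. Pooled fibroblasts had 9.13-fold (8.70 to 9.59) and 8.75-fold the type II level. At 2000 UMIs a cell, 52.3% and 55.8% of alveolar fibroblasts and 8.27% and 9% of type II cells held a Tgfbr2 UMI.

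Tgfbr1 (chromosome 4, 47353222 to 47414931) encodes the kinase that Tgfbr2 activates and that phosphorylates SMAD2 and SMAD3, and its levels were the most even of the 3 receptors. Peribronchial fibroblasts had 50.05 CPM (36.5 to 67.0) and 55.4 (42.9 to 70.3), fibrotic-score fibroblasts 49.7 and 54.7, and alveolar fibroblasts 41.4 and 48.3, with overlapping intervals. Epithelial types had 15.5 to 21.3 CPM in the vehicle library and 11.8 to 17.4 in the navitoclax library. Pooled fibroblasts had 2.13-fold and 2.61-fold the type II level.

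Tgfbr3 (chromosome 5, 107106570 to 107289629) encodes betaglycan, a co-receptor without a kinase that presents the ligand, above all TGFβ2, to the kinase pair. It was mainly stromal. Peribronchial fibroblasts had 281 CPM (248 to 318) and 292 (262 to 324), smooth muscle cells 197 and 203, and alveolar fibroblasts 149 and 135, with no overlap between these 3. Peribronchial fibroblasts therefore combined the top level of Tgfbr3, 1.88-fold and 2.16-fold the alveolar one, with the lowest fibroblast level of Tgfbr2. Ciliated cells had 16.9 and 18.3 CPM, the highest epithelial level. Type II cells had 1.57 and 0.994 CPM, where the free RNA share read in fibroblasts would give 0.679 and 0.642. Type I cells held 0 and 1 UMI. The 0 allows up to 1.52 CPM (3 UMIs).

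Between the libraries most members differed little. Of the 90 pairs of a gene and a cell type, 76 had at least 20 UMIs, and 8 were called, 3 higher and 5 lower in the navitoclax library. Members called are given against the share of all genes with at least 20 UMIs called in the same type. In type II cells 1 of 9 members was called (background 3.83%), in transitional cells 1 of 7 (4.5%), in type I cells 1 of 7 (9.23%) and in ciliated cells 0 of 5 (3.42%). In alveolar fibroblasts the count was 0 of 8 (3.67%), in adventitial fibroblasts 0 of 8 (4.31%), in peribronchial fibroblasts 0 of 8 (5.24%) and in fibroblasts without a subclass 0 of 8 (4.89%). It was 4 of 8 in fibrotic-score fibroblasts (6.26%), 1 of 8 in smooth muscle cells (6.33%) and 0 of 8 in pooled fibroblasts (3.85%). With 5 to 9 members per type, single calls stand close to these shares, and only the fibrotic-score fibroblasts had more than 1. The median log2 ratio of the members, with 5 CPM added to both levels, lay between -0.05 and 0.15 in every type except type I cells, where it was -0.30 against -0.07 over all genes.

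**Figure D3:**
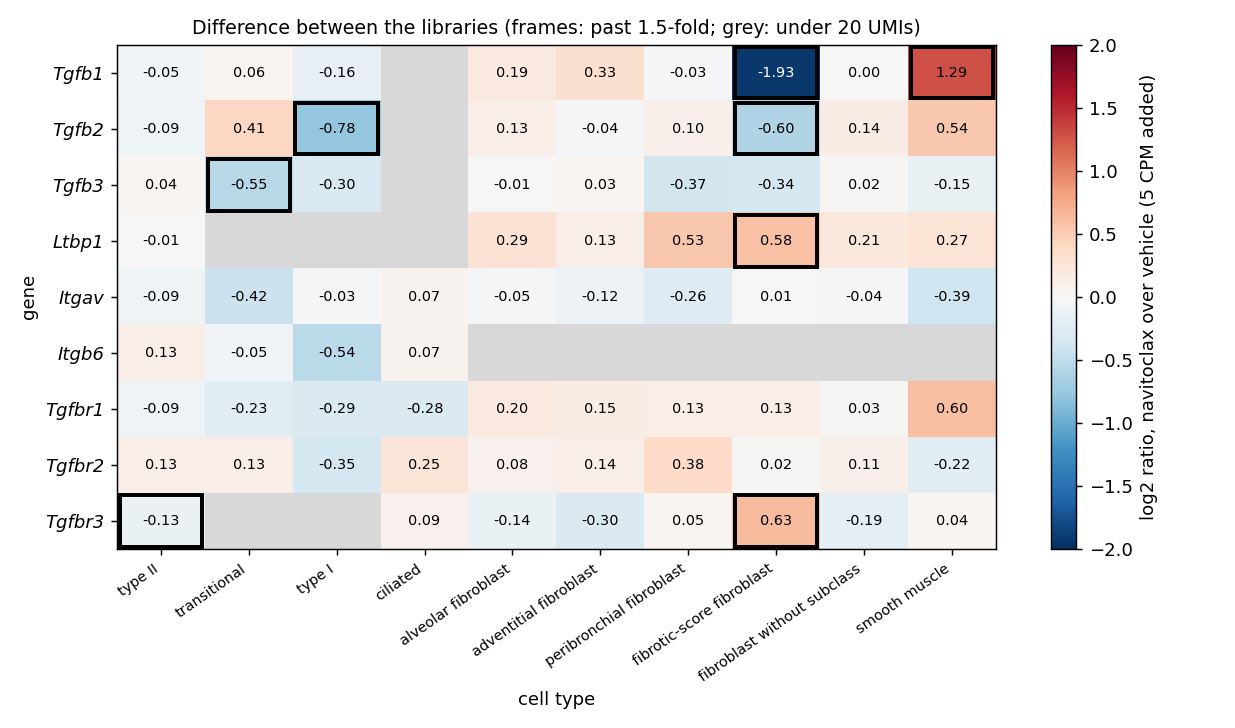
Log2 ratio of navitoclax to vehicle CPM (5 CPM added to both) for each of the 9 genes by cell type, as a colour map. Frames mark called pairs, and grey marks pairs under 20 UMIs. Ltbp1 is positive in all 6 stromal types, and Tgfb2 and Itgb6 are negative in type I cells.

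Ltbp1 was the member with the most even shift. Its level was above the vehicle level in 6 of 6 stromal types, with an interval that left out 1 in 5 of them, and it stayed above in every stromal type under each alternative run there. The share of all genes with such a run of types is not given here. Pooled fibroblasts had 203 CPM (198 to 209) in the vehicle library and 244 (237 to 250) in the navitoclax library, a ratio of 1.2 (1.16 to 1.25). The ratio was 1.23 (1.17 to 1.29) in alveolar fibroblasts, 1.46 (1.16 to 1.87) in peribronchial fibroblasts and 1.21 (0.9 to 1.63) in smooth muscle cells. Of the 10 types only fibrotic-score fibroblasts were called, with 190 CPM (164 to 219) against 286 (257 to 319) and a ratio of 1.51 (1.26 to 1.81). That call ended at 1.49 without the top cell of each library, with mitochondrial UMIs of up to 30% allowed, and when ratios were divided by the median ratio. Without the top cells Ltbp1 was instead called higher in peribronchial fibroblasts, at 1.54 (1.21 to 1.98). Within single clusters of fibroblasts, a split chosen after the values were seen, Ltbp1 was above the vehicle level in 12 of 12 groups of cells. The ratios were 1.07 to 1.49, with an interval that left out 1 in only 3 of the 12 groups, and all groups came from the same libraries. In the same 12 groups Tgfbr3 was below the vehicle level in 11. No share over all genes is given for such counts. With 1 library per group, a difference between preparations and one between treatments cannot be told apart.

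Among the receptors, Tgfbr1 was above the vehicle level in 6 of 6 stromal types and in 0 of 4 epithelial types, with a ratio of 1.13 (1.04 to 1.23) in pooled fibroblasts. Its interval left out 1 in only 1 of the 6 stromal types and in 0 of the 4 epithelial types. The share of all genes with such a split is not given here. Its direction turned in smooth muscle cells named by cluster (0.78), in peribronchial fibroblasts thinned to 2000 UMIs (0.881) and, at 0.995, in fibroblasts without a subclass when ratios were divided by the median ratio. Tgfbr2 was above it in 8 of 10 types, by 1.05-fold (1.03 to 1.08) in pooled fibroblasts and 1.10-fold (1.04 to 1.17) in type II cells. The type II cells of the libraries lay largely in different clusters, 1580 vehicle and 530 navitoclax cells in the one and 132 and 980 in another. Within the 4 clusters compared the Tgfbr2 ratio was 0.957 to 1.28, with an interval that left out 1 in 1 of them. Tgfbr3 was below it in pooled fibroblasts, at 144 CPM (140 to 149) against 132 (128 to 137), a ratio of 0.917 (0.875 to 0.962). None of these pooled and type II ratios passed the fold. Tgfbr1 in smooth muscle cells did, at 1.6 (0.832 to 3.18), and was not called because its interval held 1. Whether epithelial and stromal ratios differ was not tested. Tgfbr3 was called lower in type II cells, 74 against 46 UMIs with a ratio of 0.631 (0.427 to 0.924), at low levels of 1.57 and 0.994 CPM. The part of free RNA in these levels was not tested. The call was lost when doublets were kept (0.672), under a wider gate margin (0.72) and with cells named by cluster (0.672). Thinned to 2000 UMIs a cell, the Tgfbr3 ratio turned to 2.29 on few UMIs. Within the 4 type II clusters it was 0.473 to 1.03, with no interval that left out 1.

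In transitional cells Tgfb3 had 24.9 CPM (19.8 to 30.9) in the vehicle library and 15.4 (12.2 to 19.3) in the navitoclax library. It was called lower there with a ratio of 0.619 (0.448 to 0.854), which the top cells did not carry (0.634 without them), and a wider gate margin gave 0.47. With cells named by cluster the ratio was 0.709 and was not called. Itgav in these cells had 69.9 CPM (61.2 to 79.5) and 50.8 (44.8 to 57.5), a ratio of 0.727 (0.606 to 0.872) that did not pass the fold, while Itgb6 had a ratio of 0.962 (0.725 to 1.28). Smooth muscle cells were few, 86 and 74, and Tgfb1 was called higher in them on 5 against 17 UMIs, a ratio of 3.23 (1.14 to 11.2). Naming cells by cluster (3.75) or leaving out the top cells (3.63) left too few UMIs for a call. Tgfb2 in the same cells had a ratio of 1.47 (1.05 to 2.07), under the fold, and was called higher at 1.64 (1.14 to 2.39) without the top cells.

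In fibrotic-score fibroblasts, 110 and 114 cells, Tgfb1 and Tgfb2 were called lower and Tgfbr3 and Ltbp1 higher. Tgfb1 had a ratio of 0.237 (0.163 to 0.338), and without the top cell of each library 0.675 (0.425 to 1.07), which was not called. Tgfb2 had a ratio of 0.637 (0.45 to 0.897), and without those cells 0.702 (0.477 to 1.03), again not called. The Tgfbr3 call held without those cells, with 72.1 CPM (56.6 to 90.5) against 115 (96.0 to 136), a ratio of 1.59 (1.19 to 2.14) and of 1.62 without them. Summed endothelial markers of this class were at 62.4 CPM in the vehicle and 136 in the navitoclax library, with 3 and 4 of the 6 markers at 0, and their part in these values was not tested. No cluster carried the markers of this class, so none of these values has a second definition of the cells behind it.

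The type I cells of the libraries were not alike in their markers. In the vehicle library 167 cells passed the type I gate with a median type I score of 0.84 and a median type II score of 0.214, and 131 of them lay in the type I cluster. In the navitoclax library 100 cells passed with medians of 0.721 and 0.519, and 41 lay in that cluster. Summed type II markers came to 91505.5 CPM in the vehicle gate and 142049 in the navitoclax gate. Tgfb2 was called lower in this gate, 103 against 57.9 CPM with a ratio of 0.562 (0.432 to 0.726), and a wider gate margin gave 0.682, which was not called. Itgb6 had a ratio of 0.678 (0.563 to 0.814), which left out 1 without passing the fold, and Tgfbr2 one of 0.776 (0.616 to 0.976).

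Cells of the type II, transitional and type I gates were therefore also placed in bins of their type I score, a step added after the values were seen. Along the score Tgfb2 went from 0.614 and 0.517 CPM at scores of 0 to 0.3 to 30.3 and 33.1 at 0.6 to 0.75 and to 140 (120 to 161) and 107 (80.1 to 139) at 0.75 and above. Itgb6 went from 6.50 and 7.28 through 48.6 and 64.2 to 242 and 231 CPM. Each of them was higher in every successive bin of the 6 in both libraries. The span was smaller for Itgav, from 33.6 and 31.2 to 71.7 and 77.0 CPM, and Tgfbr2 from 40.7 and 45.1 to 132 and 120. At scores of at least 0.75, with 113 vehicle and 41 navitoclax cells, the ratio was 0.764 (0.553 to 1.04) for Tgfb2 and 0.953 (0.764 to 1.18) for Itgb6, and neither interval left out 1. With cells named by cluster, Tgfb2 turned to a log2 ratio of 0.05 and Itgb6 stood at 214 and 233 CPM.

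**Figure D4:**
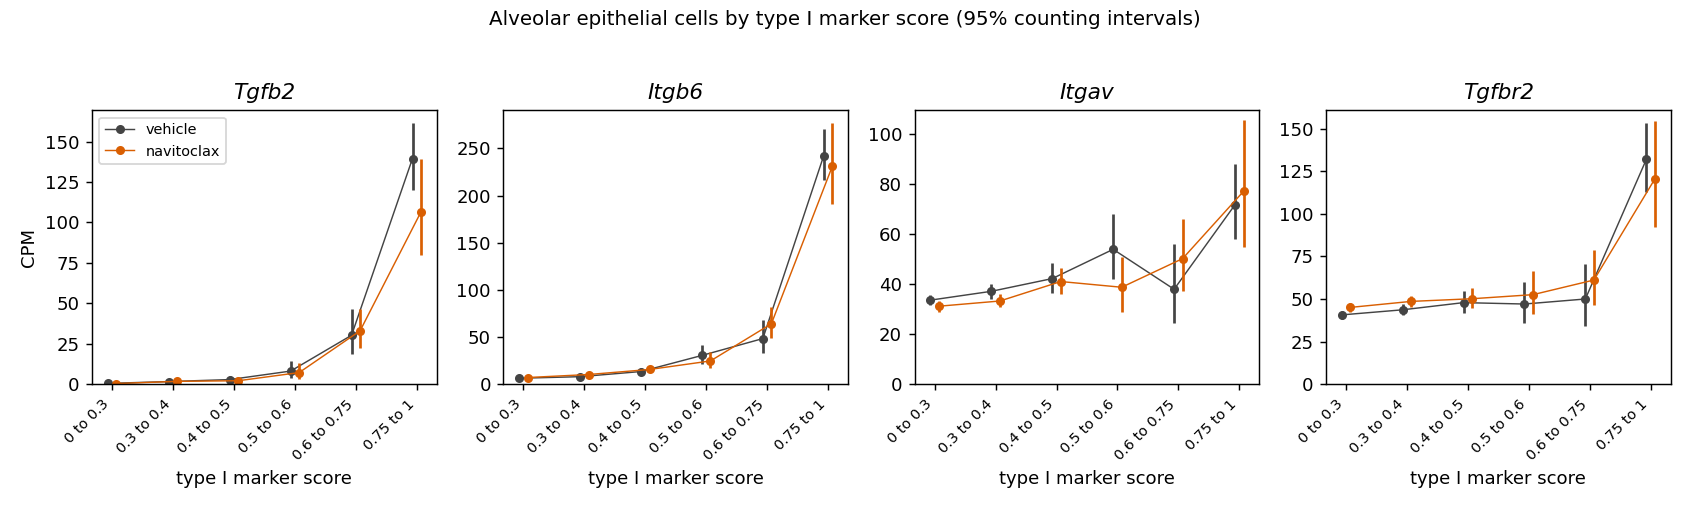
Level of Tgfb2, Itgb6, Itgav and Tgfbr2 (CPM, linear axis) in type II, transitional and type I cells by bins of their type I marker score, 1 line per library with 95% Poisson intervals. In the top bin Tgfb2 reaches 140 and 107 CPM and Itgb6 242 and 231.

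Other genes followed the members over the 20 profiles (10 types in 2 libraries), by the Pearson correlation of log2(CPM + 5) among 5675 genes that reach 50 CPM. The profiles share libraries and depth, so these values describe and carry no test. The nearest to Tgfb1 were Usp25 (0.86) and Ppic (0.84), to Tgfb2 Samd4 and Pxdn (both 0.97), and to Tgfb3 Skil (0.97) and Ybx3 (0.96). Ltbp1 was followed by Ptgis and Gulp1 (both 0.997), Itgav by Camk2d (0.91) and Ehd2 (0.90), and Itgb6 by Ppp3ca and Clic5 (both 0.98), the latter a type I gating marker. The nearest to Tgfbr1 were Axin2 and Plxnc1 (both 0.96), to Tgfbr2 Pid1 and Cxcl14 (both 0.97), and to Tgfbr3 Auts2 and Lama4 (both 0.99). The likeness was weakest for Tgfb1 and Itgav.

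The rest of the pathway was read from 6 lists with 100 genes. In pooled fibroblasts 2 of 94 tested were called higher and 2 lower (3.85% of all genes were called), and in type II cells 5 higher and 2 lower of 89 (3.83% of all genes). The pooled count is near that share. Among matrix and latency genes of pooled fibroblasts none was called higher and 1 of 12 lower, Fbn2, a fibrillin, on low levels of 2.01 and 0.790 CPM. Of its 53 vehicle UMIs 47 came from fibrotic-score fibroblasts, where Fbn2 had 45.8 and 8.55 CPM. Of 14 other activators none was called, and the median log2 ratio was 0.09. None was called either among 12 receptors and co-receptors, 13 SMAD-type mediators and 15 antagonists. Of 34 response genes 2 were higher and 1 lower, with a median log2 ratio of 0.04 against 0.01 over all genes.

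The called response genes differed in direction. Timp1, a metalloproteinase inhibitor, was higher, with 140 CPM in the vehicle and 227 in the navitoclax pooled fibroblasts and a ratio of 1.63 (1.56 to 1.70). Its level rose in alveolar and adventitial fibroblasts and in those without a subclass. Peribronchial fibroblasts had 120 and 117 CPM, and fibrotic-score fibroblasts went down from 452 (412 to 495) to 373 (339 to 409). Id1, an inhibitor of differentiation that BMP signals also induce, was lower, at 206 and 130 CPM with a ratio of 0.632 (0.605 to 0.661). It was lower in type II cells too, from 57.4 to 37.5 CPM (0.654), as was Bhlhe40, a transcription factor, from 51.1 to 33.8 (0.662). The 5 genes called higher in type II cells, Fbn2, Ctgf, Col5a1, Snai2 and Itga11, were all under 4 CPM in both libraries.

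Thbs1 encodes thrombospondin-1, which can release TGFβ from its propeptide, and had its top level in vehicle peribronchial fibroblasts at 1315 CPM. In adventitial fibroblasts Thbs1 was called higher, from 129 to 267 CPM with a ratio of 2.07 (1.88 to 2.28), and in type I cells from 161 to 297 with 1.84 (1.59 to 2.14). In pooled fibroblasts its ratio was 1.34 (1.3 to 1.37), under the fold. Mmp2, a matrix metalloproteinase, reached 1087 CPM in vehicle fibrotic-score fibroblasts and Itga8, the integrin subunit that also pairs to bind the Arg-Gly-Asp motif, 799 in vehicle alveolar fibroblasts.

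Of the remaining genes with the top levels of their lists, Dcn (also a gating marker), Eln and Fn1 led the matrix list, with 11772 CPM in adventitial and 5578 and 4242 CPM in fibrotic-score fibroblasts of the vehicle library. Of the 4354 Fn1 UMIs behind that last level, 1055 came from 1 cell. Among co-receptors Nrp1 reached 730 CPM in navitoclax fibrotic-score fibroblasts, Sdc2 309 in vehicle alveolar fibroblasts and Cd44 199.9 in navitoclax peribronchial fibroblasts. Among mediators Crebbp reached 117 CPM in smooth muscle, Trim33 94.8 in ciliated and Smad4 84.8 in fibrotic-score cells of the vehicle library. The leading antagonists were Pmepa1 with 1117 CPM in vehicle fibrotic-score fibroblasts, Fkbp1a with 312 in navitoclax smooth muscle cells and Wwp1 with 236 in vehicle type I cells. Of the response genes Junb reached 4435 CPM in navitoclax peribronchial fibroblasts and Vim 2684 in navitoclax smooth muscle cells. In type I cells 4 pathway genes were called higher and 14 lower of 71, in the type where 9.23% of all genes were called and the marker scores of the libraries differed.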

How the data were processed

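The authors deposited raw UMI counts per gene and cell barcode for each library, with Cell Ranger 4.0.0 named per the file headers and mm10 per the submitters' processing notes. The alignment settings were not given in the sources used here. Both the members and gene lists were chosen with earlier results of these data known.

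Barcodes needed a minimum of 500 genes and a mitochondrial share of no more than 15%. Doublets called by Scrublet (scanpy 1.11.5, expected rate 6%), 222 vehicle and 217 navitoclax cells, were removed. Cells were gated on marker scores, with thresholds set after scores and cell counts were seen, which left 3.88% and 4% of cells without a type. Types were described where each library held 50 or more of their cells, and 5 types fell short. UMIs were summed per type, with exact Poisson intervals for CPM, conditional exact binomial intervals for ratios and Clopper-Pearson intervals for shares (scipy 1.17.1). Free RNA was not subtracted from the printed levels. The libraries shared 20 barcodes in all. Marker lists of macrophages summed to 0 to 41.1 CPM per vehicle type and 1.73 to 20 per navitoclax type, lymphocytes to 0 to 1.25 and 0 to 0.403, and endothelial cells to 1.4 to 148 and 1.25 to 138, and their part in the results was not tested.

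Named genes were the 9 members, from each of the 6 pathway lists the 3 with the highest CPM and up to 2 called with the largest ratio in pooled fibroblasts and in type II cells (at least 50 UMIs), and the 2 genes most like each member. The other genes called in type II cells and the calls of Thbs1 in single types were chosen after their values were seen. A gene that the rule names is not reported here. Coordinates are from GENCODE M21 (GRCm38), in which 27645 gene identifiers were found. The ratio rule was tested on simulated counts. Alternatives were cell types from Leiden clusters (leidenalg 0.10.2, resolution 1), other cell filters, doublets kept, a wider gate margin, thinning, free RNA subtracted, ratios divided by their median, another fold or UMI minimum, and each type without its top cell.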

Additional observations from a re-analysis of the deposited data

How the results depend on the processing

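Of 742 ratios of members recomputed under the alternatives, 699 stayed within the interval of the printed ratio, 41 moved outside it and 2 called ratios turned. The log2 ratio of Tgfb2 in type I cells was 0.0507 when cells were named by cluster, and the log2 ratio of Tgfbr3 in type II cells was 1.19 after thinning to 2000 UMIs, on few UMIs. The cause was not tested. The 8 called pairs became 2 with a wider gate margin (Tgfb1 in smooth muscle cells, Tgfb3 in transitional cells) and 2 at a fold of 2. With cluster names none of the 8 was called, and 1 other pair was (Itgav in type I cells, higher at 1.84). The 11 pathway genes called in pooled fibroblasts and type II cells became 4 at a fold of 2. Of the levels in the highest type 108 of 118 stayed within counting error, and of the shares of cells 2 of 18, the other 16 moving with the depth to which cells were thinned. Cells could not be named as fibrotic-score fibroblasts by cluster, so that alternative gave no value there. No paired analysis was possible because each group had 1 library, and for the same reason no library could be left out.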

Other observations

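Cell types with fewer than 50 cells in a library were left out of the report, and the members' values in the larger of them are given here. Mesothelial cells, the lining of the pleura, numbered 59 in the vehicle and 30 in the navitoclax library, and all 7 of their markers were detected. They had the highest Tgfb2 level of any type, 522 CPM (465 to 584) in the vehicle library and 350 (285 to 425) in the navitoclax library, on 306 and 101 UMIs, a ratio of 0.67 (0.53 to 0.842). After thinning to 2000 UMIs, 55.2% and 48.3% of them held a Tgfb2 UMI. Ltbp1 in mesothelial cells was at 138 CPM (110 to 172) and 256 (201 to 322), a ratio of 1.85 (1.33 to 2.57), called higher and in the same direction as in the 6 stromal types. Itgav was at 106 and 149 CPM, Tgfb3 at 126 and 107, Tgfbr2 at 113 and 163, and Itgb6 had no UMI in either library. Club and secretory cells, 67 and 49, had 8.61 and 12.3 CPM of Tgfb2 and 5.10 and 10.1 of Itgb6. By the same rule Tgfbr1 was called higher in them, at 5.10 and 11 CPM with a ratio of 2.15 (1.1 to 4.31), as was Tgfbr2, at 8.93 and 18.4 CPM with 2.07 (1.25 to 3.46). Neither was called in the 4 epithelial types of the report, and that difference was not tested. Itgb6 was called too, at 1.98 (1.00 to 4.01).

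The vehicle fibrotic-score cell with 103 Tgfb1 UMIs had 79462 UMIs from 7646 genes, the deepest of its class, whose median is 8005, and 2.97% mitochondrial UMIs. Its Tgfb1 level was 1296 CPM, and it held 22 UMIs of Tgfb2. The matricellular gene Spp1 gave 9167 of its UMIs, 11.5%, Mgp 6375 and Fn1 1055. Ptprc and every marker of the macrophage, lymphocyte, ciliated and general epithelial lists (4 markers in the last) were at 0 in it. Of the type II markers 8 of 9 were detected, with 64 UMIs (805 CPM, against a class median of 2537). So were 2 of 7 club and secretory markers with 28 UMIs, 2 of 8 type I markers and 1 of 7 transitional markers. Also detected were 5 of 6 fibroblast markers, 4 of 7 fibrotic markers and 3 of 6 endothelial markers, the last with 14 UMIs. Of the fibroblast subclass lists it held 5 of 7 adventitial markers with 105 UMIs and 3 of 6 peribronchial markers with 94 UMIs. Only 1 of 6 alveolar fibroblast markers was detected, with 1 UMI (12.6 CPM, against a class median of 9466). Smooth muscle markers gave 18 UMIs and pericyte markers 19.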
